A study of Mus musculus with 6 samples.

Results

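Pyruvate dehydrogenase, the tricarboxylic acid (TCA) cycle and the reactions that refill the cycle were followed through 36 genes. These were taken by symbol from a list of these reactions, by a rule that uses no measured value. The list itself was chosen with earlier results of these data known, so its counts beside those of all genes are descriptive. All 36 were found among the 22063 genes of the deposited table, each as 1 row, and all 36 passed the filter on low counts. The libraries were made from mRNA of heart muscle cells of WT mice, isolated by perfusing the heart through the aorta (Langendorff method). The AKG group (3 libraries) came from P21 mice injected daily for 2 weeks with α-ketoglutarate (2-oxoglutarate) at 300 mg/kg/d, and the Control group (3 libraries) from P21 mice injected with PBS. The labels do not give the strain, the sex or whether a library held 1 mouse or a pool. The p-values measure the spread between these libraries, which may in part be technical. Control 2 was nearly free of Y-linked transcripts (0.311 CPM, beside 168 and 176 CPM in Control 1 and Control 3). It was therefore not made from the same mice as those 2 libraries. The labels name P21 without saying whether the injections began or ended then.

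Pyruvate made in the cytosol enters the mitochondrion through a carrier, and the pyruvate dehydrogenase complex (PDH) turns it into acetyl-CoA, which citrate synthase feeds into the TCA cycle. PDH kinases switch the complex off by phosphorylating it and PDH phosphatases switch it on again, so that the heart can set how much glucose-derived carbon it burns beside fatty acids. Anaplerotic reactions such as pyruvate carboxylation, malic enzyme and transamination add or remove cycle intermediates, among them 2-oxoglutarate, and carriers of the inner membrane move malate, aspartate, citrate and dicarboxylates between the compartments.

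Transcripts of the pyruvate carrier, of all 5 PDH subunits, of most cycle enzymes and of all 4 transaminases were lower in the AKG libraries, whereas 3 of 4 PDH kinases, the phosphatase subunit Pdp1, the citrate carrier Slc25a1 and the citrate-cleaving enzyme Acly were higher. Of the 36 members, 6 rose, 22 fell and 8 did not pass the threshold (edgeR quasi-likelihood test, Benjamini-Hochberg adjusted p under 0.05). Over all 13117 genes tested, 50.2% were called, 25% higher and 25.2% lower. The median log2 fold change (AKG over Control) was -0.64 over the members and 0.00 over all tested genes. Single members ranged from -1.61 for Pdp2 to 1.61 for Pdk3. The values of the libraries did not overlap between the groups for 29 members, 6 with AKG above Control and 23 with AKG below, against 59.2% of all tested genes, 29.4% above and 29.9% below. Summed over the members, levels in CPM (counts scaled to library size with TMM factors) were 5868, 6411 and 6941 in AKG 1, 2 and 3, against 9467, 9748 and 10320 CPM in Control 1, 2 and 3. The members' counts in a library lay between 55 and 23159.

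These changes are relative to the bulk of genes. Scaled to total counts instead, the median of all genes moved to 0.44 and that of the members to -0.20, with 12 members higher and 16 lower. Dld, Me1, Got1 and Got2 kept their sign but not their call there (-0.18, -0.08, -0.51 and -0.22). Among the called members, Pdha1 and Slc25a12 changed sign under that scaling, and the sections on them give the values. Under the DESeq2 size factors no member changed its direction or its side of the threshold. In the authors' deposited table the false discovery rate was under 0.05 for 28 members. The fold change in that table is a ratio of mean FPKM. The rate lay close to the adjusted p of DESeq2 on the counts, at 2.18e-66 and 2.22e-66 for Mpc2 and 2.43e-28 and 2.25e-28 for Pdk1. The pair is therefore not read as a call of direction. Of the 28 members, 8 had a positive deposited fold change, and 2 of these, Pdha1 and Slc25a12, were called lower by edgeR on the counts. For Pdha1 the authors' deposited table holds a log2 fold change of 0.13 and a rate of 0.000976, whereas DESeq2 on the counts gave -0.31 with an adjusted p of 0.000845.

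**Figure D1:**
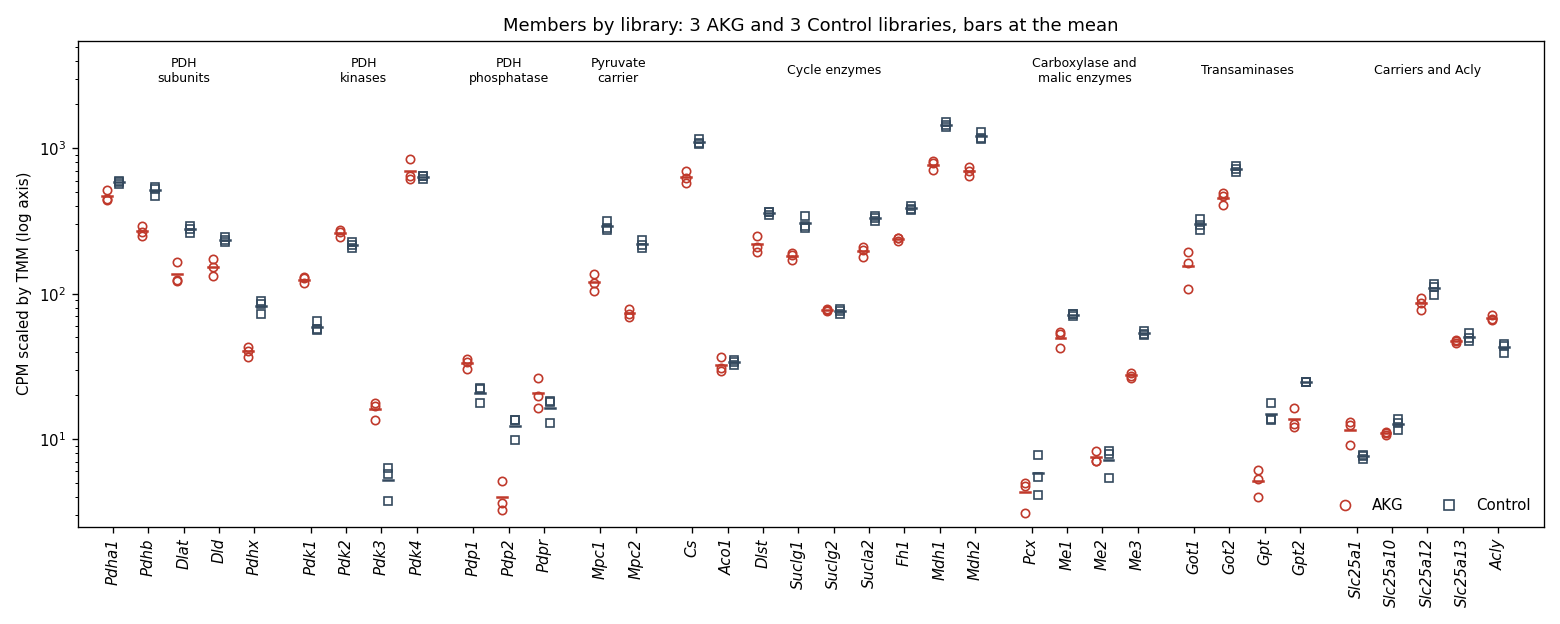
CPM of the 36 members on a log axis, by role, with 1 open circle for each AKG library (left) and 1 open square for each Control library (right); short bars mark the means. The AKG circles lie wholly below the Control squares for 23 members and wholly above them for Pdk1, Pdk2, Pdk3, Pdp1, Slc25a1 and Acly, on the TMM scale.

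Library totals ranged from 14402875 to 15315233 counts in AKG and from 16241111 to 17797348 in Control, and mitochondrially encoded transcripts took 25.7 to 31.4% of counts in AKG and 38.3 to 43.1% in Control. Ventricular muscle markers were abundant in every library, and 7 of 8 fell. Their summed level was 27853 to 31164 CPM in AKG and 60378 to 65348 CPM in Control. Fewer heart muscle cells and less of these transcripts per cell cannot be told apart in bulk RNA, and the part of this difference in the members' fall was not tested. As a share of that marker sum, the members summed to 21.1, 20.6 and 23.2% in AKG and to 15.3, 16.1 and 15.8% in Control. The largest parts of the sum in Control were Myh6 and Actc1, at means of 27743 and 11995 CPM. Their means in AKG were 12427 and 2996 CPM. Pln, the marker that did not pass the threshold, had means of 3216 CPM in AKG and 3238 CPM in Control. The higher share in AKG therefore holds for this sum, and not for each marker. The share without Myh6 and Actc1 was not tested. Atrial markers (5 of 5 detected) summed to 359 and 220 CPM in AKG 1 and AKG 3, to 7.58 CPM in AKG 2 and to 6.40 to 12.0 CPM in Control. With AKG 2 alone against the Controls, 6 members were higher and 22 lower, but those calls rest on the spread of the 3 Controls, and the lone AKG library was assumed to vary like them. The 6 smooth muscle and pericyte markers summed to 933 to 1133 CPM in AKG and 1945 to 2118 CPM in Control. The 8 fibroblast markers summed to 2320 to 3032 and 2559 to 3231 CPM, the 6 endothelial markers to 1273 to 1456 and 1168 to 1279 CPM. The 6 macrophage markers summed to 43.4 to 55.4 and 71.9 to 104 CPM, the 5 neutrophil markers to 5.23 to 12.0 and 0.736 to 1.5 CPM. The 4 erythroid markers summed to 1376 to 1976 and 1294 to 1825 CPM and the 3 hepatocyte markers to 0.281 to 0.666 and 0 to 0.147 CPM. The parts of these cell types in the results below were not tested, apart from the values given beside a gene.

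Promoter sequence was available for 33 of the 36 members (RefSeq, GRCm38.p6, 250 bases before to 50 after the gene start, 38 windows). The letters ACGTG, the core of the site bound by hypoxia-inducible factors, are shown because the kinase genes Pdk1 and Pdk3 are known targets of those factors; they overlap the E-box CACGTG, a site of other regulators. On either strand ACGTG stood in 28.9% of the member windows and in 19.7% of all 32544 windows, and CACGTG in 15.8% and 7.17%. The shorter letters ACGTG stood in windows of 4 of the 5 higher members with a window, 4 of 21 lower members and 3 of 7 members that did not pass the threshold. These counts describe letters, not bound sites. A match of each higher and lower member is given with its region, 5′ to 3′ on the strand of the gene, with the motif (or the whole E-box where there is one) in capitals.
Acly (chr11:100528047-100528091, minus strand, higher): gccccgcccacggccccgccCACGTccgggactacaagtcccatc
Pdk2 (chr11:95041472-95041517, minus strand, higher): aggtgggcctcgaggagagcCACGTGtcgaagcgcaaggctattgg
Pdk3 (chrX:93832179-93832223, minus strand, higher): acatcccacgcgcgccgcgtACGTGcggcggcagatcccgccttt
Slc25a1 (chr16:17928433-17928469, minus strand, higher): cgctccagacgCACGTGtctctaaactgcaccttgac
Pdp2 (chr8:104591233-104591278, plus strand, lower): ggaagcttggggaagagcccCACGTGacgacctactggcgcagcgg
Pdhb (chr14:8173216-8173242, minus strand, lower): ctCACGTcacctctgctggaccgcgac
Mdh1 (chr11:21572109-21572153, minus strand, lower): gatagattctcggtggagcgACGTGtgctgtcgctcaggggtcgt
Me1 (chr9:86687351-86687395, minus strand, lower): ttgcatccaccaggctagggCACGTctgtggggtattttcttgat
The E-box CACGTG stood in the windows of Pdk2 and Slc25a1, which rose, and of Pdp2, which fell. It also stood in those of Pcx, Pdpr and Slc25a13, which did not pass the threshold. In the window of Pdk1 the letters ACGTG were not found. The NRF1 motif, of a regulator of nuclear genes for mitochondria, stood in the windows of Dld and Sucla2, which is 5.26% of the member windows beside 4.63% of all. TNAAGGTCA, the letters bound by the oestrogen-related receptors, and TCACNCCAC, a sterol-response form, stood in 0 member windows, beside 1.28% and 1.24% of all.

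The mitochondrial pyruvate carrier had the deepest fall of the roles in which every member moved the same way. Mpc2, which forms the carrier with Mpc1, had 69.5, 78.8 and 72.0 CPM in AKG 1, 2 and 3, against 217, 207 and 234 CPM in Control 1, 2 and 3. The groups lay far apart, with each AKG library under 80 CPM. Mpc2 fell by 1.58 on the log2 scale (SE 0.0812, adjusted p = 1.21e-08, edgeR), a level 2.98-fold higher in Control. Mpc1 had 104, 137 and 119 CPM in AKG, against 276, 283 and 315 CPM in Control, and fell by 1.28 (SE 0.102, adjusted p = 4.9e-07). In GENCODE M21 an opposite-strand transcript, 4930506C21Rik, covers 23.1% of the exon bases of Mpc1, and the counting is not known to have used strand. The ratio of Mpc1 to Mpc2 in FPKM, which no scaling of libraries can move, was 1.6, 1.87 and 1.77 in AKG and 1.36, 1.46 and 1.45 in Control.

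Each of the 5 PDH subunits fell, by unequal amounts. Pdhx, the protein that anchors the E3 enzyme in the complex, had 36.8, 40.5 and 42.8 CPM in AKG, against 72.1, 84.4 and 89.5 CPM in Control (log2 fold change -1.03, SE 0.0928, adjusted p = 1.2e-06, edgeR). On the FPKM scale with a pseudocount of 1 the difference of Pdhx was -0.28 and did not pass the threshold (adjusted p = 0.127, limma). Under total-count scaling Pdhx kept its call (-0.59, adjusted p = 0.000233, edgeR). Dlat, the E2 acetyltransferase core, had 122, 123 and 164 CPM in AKG, against 263, 280 and 293 CPM in Control (-1.03, SE 0.111, adjusted p = 9.86e-06). Pdhb, the beta subunit of the E1 decarboxylase, had 248, 265 and 292 CPM in AKG, against 470, 523 and 544 CPM in Control (-0.93, SE 0.0899, adjusted p = 2.21e-06). For these 3 subunits no AKG library reached the lowest Control. Dld, the E3 dehydrogenase that PDH shares with the 2-oxoglutarate dehydrogenase complex, had 132, 153 and 173 CPM in AKG, against 228, 233 and 245 CPM in Control (-0.62, SE 0.0946, adjusted p = 0.000111).

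Pdha1, the X-linked E1 alpha subunit that carries the phosphorylation sites of the kinases, had 437, 449 and 517 CPM in AKG, against 564, 589 and 597 CPM in Control. The fall was the shallowest of the 5 (log2 fold change -0.32, SE 0.087, adjusted p = 0.00777, edgeR) and its direction depended on the scaling: with total counts it was 0.13 with an adjusted p of 0.285, and the authors' deposited table gives 0.13. Within a library the proportions of the subunits differed between the groups. The FPKM of Pdha1 over that of Pdhb was 0.937, 0.899 and 0.943 in AKG and 0.637, 0.598 and 0.583 in Control. Over Dlat it was 5.10, 5.15 and 4.46 in AKG and 3.04, 2.98 and 2.89 in Control. Both ratios were higher in every AKG library. The 4 Y-linked transcripts summed to 89.2, 50.4 and 39.0 CPM in AKG and to 168, 0.311 and 176 CPM in Control. Without Control 2, the library nearly free of them, Pdha1 had a log2 fold change of -0.31 (adjusted p = 0.0359, edgeR). Control 1 and Control 3 each exceeded every AKG library in this sum, so that fit does not balance the groups for sex. The part of sex was not tested. In GENCODE M21 exons of Map3k15 on the opposite strand cover 16.1% of the exon bases of Pdha1.

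Of the 4 PDH kinases, 3 rose, and the most abundant, Pdk4, did not pass the threshold. Pdk3 had 16.9, 13.6 and 17.7 CPM in AKG, against 3.74, 5.71 and 6.33 CPM in Control. This X-linked kinase had the largest rise of the members (log2 fold change 1.61, SE 0.18, a 3.06-fold difference, adjusted p = 1e-05, edgeR), from a low level. Without Control 2 it was 1.68 (adjusted p = 0.000173), a fit that does not balance the groups for sex. Pdk1, a kinase known as a target of hypoxia-inducible factors, had 129, 118 and 128 CPM in AKG, against 56.3, 64.5 and 57.1 CPM in Control, 2.11-fold higher in AKG (1.08, SE 0.0793, adjusted p = 2.12e-07). Pdk2, a broadly expressed kinase, had 246, 266 and 276 CPM in AKG, against 205, 216 and 225 CPM in Control (0.28, SE 0.0788, adjusted p = 0.00856). Its groups were separate but close, and the adjusted p was 0.0531 without Control 1.

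Pdk4, the kinase induced by fasting and fatty acids, had 614, 648 and 838 CPM in AKG, against 646, 615 and 644 CPM in Control. AKG 1 and AKG 2 lay within or just beside the Control values, and AKG 3 stood above all of them. The log2 fold change was 0.14 (SE 0.11, adjusted p = 0.306, edgeR), and 0.59 under total-count scaling (adjusted p = 0.000826). Shares within the kinase family do not depend on the scaling. Pdk4 made up 55.3, 55.8 and 60.7% of the summed FPKM of the kinases in AKG and 64.1, 61.3 and 61.8% in Control. For Pdk1 the shares were 7.82, 6.80 and 6.22% in AKG and 3.75, 4.32 and 3.68% in Control, and for Pdk3 2.51, 1.93 and 2.11% in AKG and 0.611, 0.938 and 1% in Control. Pdk2 held 33.6 ± 2.34% in AKG and 32.9 ± 1.12% in Control (SD, n = 3 each), with overlapping groups. The kinase sum stood higher relative to its substrate: its FPKM over that of Pdha1 was 2.08, 2.12 and 2.18 in AKG and 1.46, 1.39 and 1.43 in Control.

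The catalytic subunits of the PDH phosphatase moved in opposite directions. Pdp1, the calcium-stimulated isoform, had 30.5, 33.7 and 35.4 CPM in AKG, against 22.1, 22.5 and 17.7 CPM in Control (log2 fold change 0.67, SE 0.109, adjusted p = 0.00018, edgeR). Pdp2, the isoform known for its response to insulin and feeding, had 3.26, 3.67 and 5.16 CPM in AKG, against 9.94, 13.5 and 13.6 CPM in Control, 3.05-fold higher in Control (-1.61, SE 0.195, adjusted p = 1.59e-05). Neither gene's groups overlapped; Pdp2 was the scarcer of the pair per length in every library. The FPKM of Pdp1 over that of Pdp2 was 19, 19 and 14.1 in AKG and 4.35, 3.46 and 2.58 in Control. Pdpr, the regulatory subunit, had 19.8, 16.3 and 26.3 CPM in AKG, against 12.9, 18 and 18.2 CPM in Control, with overlapping groups (0.35, SE 0.191, adjusted p = 0.157). It passed the threshold under total-count scaling (0.80, adjusted p = 0.0148), with mitochondrially encoded genes left out of the total (0.53, adjusted p = 0.0357) and on the FPKM scale (0.53, adjusted p = 0.0331, limma). Without AKG 2 its adjusted p was 0.0308, and with AKG 2 alone its log2 fold change was 0.00. The kinase sum over the sum of Pdp1 and Pdp2 was 27.6 ± 1.58 in AKG and 31.1 ± 3.87 in Control (ratio of FPKM, SD, n = 3 each), and the groups overlapped.

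**Figure D2:**
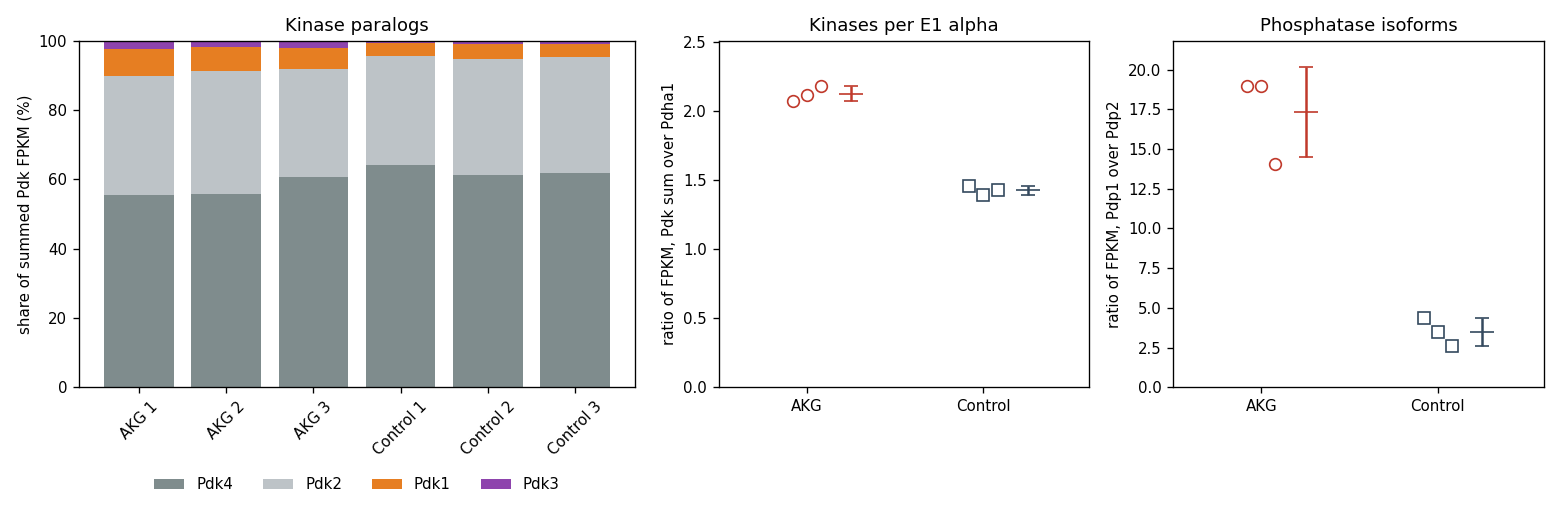
Left, the share (%) of each kinase in the summed Pdk FPKM of each library, AKG 1 to 3 and then Control 1 to 3; middle and right, ratios of FPKM for the kinase sum over Pdha1 and for Pdp1 over Pdp2, with 1 symbol per library and the mean ± SD beside them. The AKG libraries lie at 2.08 to 2.18 and the Control libraries at 1.39 to 1.46 for the kinases, and at 14.1 to 19 and 2.58 to 4.35 for the phosphatase isoforms.

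Of the 9 cycle enzymes on the list, 7 fell, by similar amounts, and 0 rose. Cs, citrate synthase, which starts the cycle and is widely used as a measure of mitochondrial content, had 581, 629 and 697 CPM in AKG, against 1092, 1078 and 1161 CPM in Control, 1.75-fold higher in Control (log2 fold change -0.81, SE 0.091, adjusted p = 8.78e-06, edgeR). Mdh2, the malate dehydrogenase that closes the cycle, had 641, 740 and 698 CPM in AKG, against 1150, 1171 and 1294 CPM in Control (-0.80, SE 0.0906, adjusted p = 9.15e-06). Mdh1, its cytosolic counterpart in the malate-aspartate shuttle, had 706, 791 and 813 CPM in AKG, against 1394, 1438 and 1505 CPM in Control (-0.91, SE 0.089, adjusted p = 2.56e-06). These enzymes were the 3 most abundant members per length in both groups, and the groups lay far apart for each. Mdh1 and Mdh2 kept their proportion: their FPKM ratio was 1 ± 0.0878 in AKG and 0.969 ± 0.0658 in Control (SD, n = 3 each), with overlapping groups.

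Fh1, fumarase, had 231, 241 and 242 CPM in AKG, against 383, 374 and 401 CPM in Control (log2 fold change -0.70, SE 0.0755, adjusted p = 6.26e-06, edgeR). Dlst, the E2 succinyltransferase of the 2-oxoglutarate dehydrogenase complex, had 194, 210 and 251 CPM in AKG, against 350, 366 and 364 CPM in Control (-0.72, SE 0.0948, adjusted p = 3.27e-05). In both genes every AKG library was below every Control library. Aco1, the cytosolic aconitase that also acts as iron regulatory protein and is not part of the mitochondrial cycle, had 29.5, 30.8 and 37.0 CPM in AKG, against 32.3, 35.2 and 34.0 CPM in Control. Its groups overlapped (-0.06, SE 0.0993, adjusted p = 0.629), and under total-count scaling its log2 fold change was 0.38 (adjusted p = 0.0113).

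Succinyl-CoA ligase, the step that makes ATP or GTP in the cycle, changed in its isoform proportions. Suclg1, the alpha subunit common to both forms, had 171, 192 and 184 CPM in AKG, against 284, 294 and 344 CPM in Control (log2 fold change -0.75, SE 0.0897, adjusted p = 1.41e-05, edgeR). Sucla2, the beta subunit of the ATP-forming enzyme, had 180, 200 and 208 CPM in AKG, against 316, 332 and 340 CPM in Control (-0.75, SE 0.0815, adjusted p = 6.27e-06). Sucla2 kept its call under total-count scaling (-0.31, adjusted p = 0.0103, edgeR) but not on the FPKM scale (-0.22, adjusted p = 0.0807, limma). Suclg2, the beta subunit of the GTP-forming enzyme, had 77.7, 75.6 and 78.1 CPM in AKG, against 78.1, 76.0 and 73.0 CPM in Control, with overlapping groups (0.03, SE 0.0684, adjusted p = 0.76), and 0.47 under total-count scaling (adjusted p = 0.000258). Of the FPKM of both beta subunits, Suclg2 held 23.9, 21.5 and 20.7% in AKG and 16.4, 14.6 and 14.5% in Control, so its share was higher in each AKG library whatever the scaling.

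Most other genes of the pathway fell too. Of 35 other genes of the pathway, 33 had enough counts to be tested, 23 fell, 2 rose and 8 did not pass the threshold, beside 25.2% and 25% of all genes, with a median log2 fold change of -0.55. This count depended on the scaling, with 12 lower and 7 higher under total counts. The lower genes with the smallest p-values were Slc25a11, the 2-oxoglutarate-malate carrier (124 ± 9.37 CPM in AKG and 261 ± 13.6 CPM in Control), Slc25a22, a mitochondrial glutamate carrier (30.0 ± 4.39 and 79.2 ± 6.65 CPM), Sdhc, a membrane subunit of succinate dehydrogenase, and Slc16a1, a lactate and pyruvate carrier of the plasma membrane, with log2 fold changes of -1.07, -1.40, -0.92 and -0.94. The 2 that rose were Idh2, the mitochondrial NADP-dependent isocitrate dehydrogenase (1312 ± 94.2 CPM in AKG and 967 ± 21.7 CPM in Control, 0.44, adjusted p = 0.000884, edgeR), and Pck2, the mitochondrial phosphoenolpyruvate carboxykinase, which takes oxaloacetate out of the cycle (36.3 ± 4.32 and 26.4 ± 2.73 CPM, 0.46, adjusted p = 0.00317). Ogdh, the E1 of the 2-oxoglutarate dehydrogenase complex, had a log2 fold change of -1.10 (SE 0.112), beside -0.72 for Dlst and -0.62 for Dld. Sdha and Sdhb were singled out after their values were seen. Sdha, the flavoprotein of succinate dehydrogenase, had 611 ± 62.8 CPM in AKG and 655 ± 43.5 CPM in Control (adjusted p = 0.396), whereas Sdhb, its iron-sulfur subunit, had 245 ± 31.6 and 540 ± 54.4 CPM (-1.14, adjusted p = 2.09e-06; n = 3 for each ± SD).

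**Figure D3:**
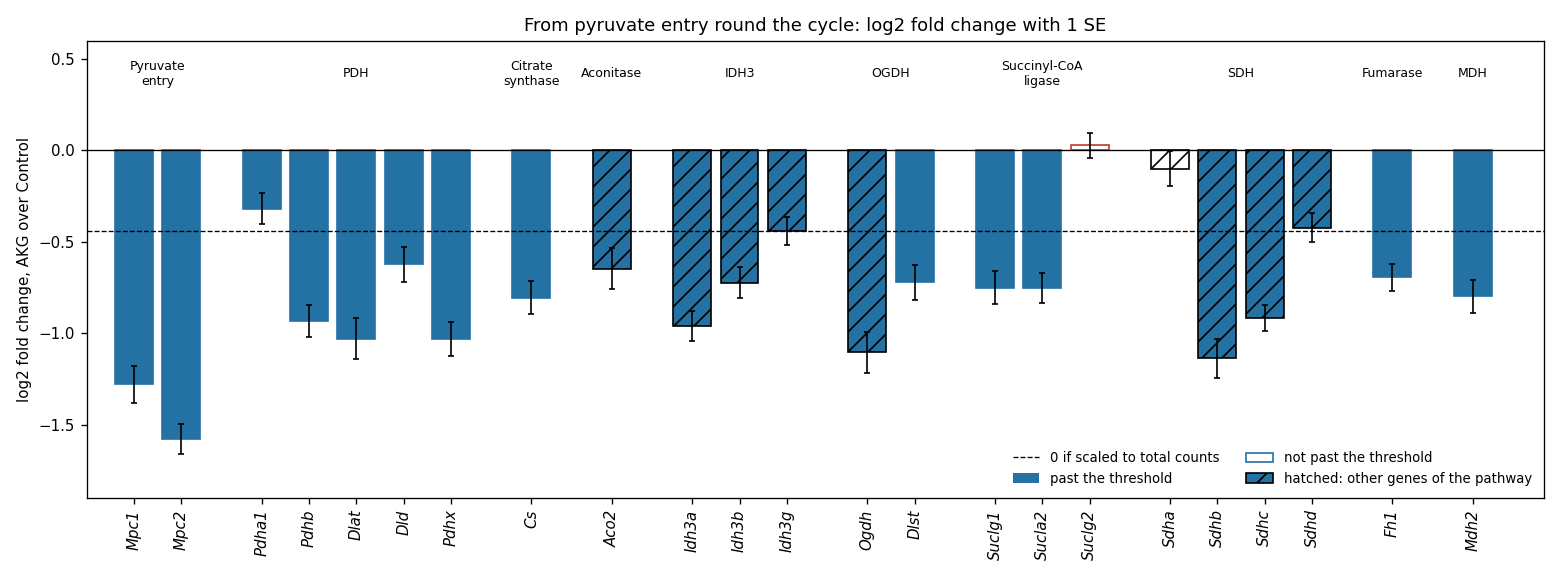
Log2 fold change (AKG over Control, with 1 SE) of the genes from pyruvate entry round the cycle, plain bars for the members and hatched bars for other genes of the pathway; open bars did not pass the threshold and the dashed line marks 0 if libraries are scaled to total counts. The bars run from -1.58 for Mpc2 to 0.03 for Suclg2, and Pdha1, Suclg2, Sdha and Sdhd stand above the dashed line.

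Of the genes for pyruvate carboxylation and malic enzyme, Pcx and Me2 were at low level, below Me1 and Me3 in every library. Pcx, pyruvate carboxylase, which makes oxaloacetate, had 3.09, 5.03 and 4.77 CPM in AKG, against 4.15, 5.47 and 7.80 CPM in Control, with overlapping groups (log2 fold change -0.43, SE 0.253, adjusted p = 0.175, edgeR), and 0.01 under total-count scaling. Per length, Pcx had the lowest mean FPKM of the members in Control, 1.23, beside 176 FPKM for Pdha1. Of the malic enzymes, which interconvert malate and pyruvate, Me3, a mitochondrial NADP-dependent form, had 27.2, 28.6 and 26.5 CPM in AKG, against 52.5, 52.2 and 55.5 CPM in Control (-0.96, SE 0.0802, adjusted p = 6.31e-07). Me1, the cytosolic form, had 54.2, 42.6 and 52.9 CPM in AKG, against 70.4, 72.6 and 72.5 CPM in Control (-0.52, SE 0.091, adjusted p = 0.000324), and -0.08 under total-count scaling. Both fell on the TMM scale with no overlap of the groups. Me2, the mitochondrial NAD-linked form, had 8.32, 7.08 and 7.10 CPM in AKG, against 7.89, 8.26 and 5.37 CPM in Control (0.06, SE 0.179, adjusted p = 0.801), and its sign turned when AKG 1 or Control 3 was left out, at -0.01 and -0.11. Under total-count scaling Me2 was called higher (0.50, adjusted p = 0.0314), as on the FPKM scale (0.38, adjusted p = 0.037, limma). Within the family Me2 held 12.2, 12.2 and 10.9% of the FPKM in AKG and 8.28, 8.49 and 5.58% in Control, higher in every AKG library. The share held by Me3 was 23.7, 29.0 and 23.9% in AKG and 32.4, 31.6 and 34.0% in Control, and the groups of Me1 overlapped, at 62.7 ± 3.42% and 59.9 ± 0.569% (SD, n = 3 each).

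All 4 transaminases, which exchange amino groups between amino acids and 2-oxoglutarate, fell. Gpt, the cytosolic alanine transaminase, had 3.99, 6.09 and 5.33 CPM in AKG, against 13.7, 13.5 and 17.7 CPM in Control, 2.91-fold higher in Control (log2 fold change -1.54, SE 0.173, adjusted p = 8.24e-06, edgeR). Gpt is abundant in liver, and the hepatocyte markers Alb, Apoa1 and Ttr were at or near 0 in all libraries. Gpt2, the mitochondrial form, had 12.0, 12.7 and 16.3 CPM in AKG, against 24.6, 24.6 and 24.7 CPM in Control (-0.84, SE 0.119, adjusted p = 6.12e-05). The Control libraries of Gpt2 stood almost at a single value, above all AKG libraries.

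Got2, the mitochondrial aspartate transaminase, was the most abundant of the 4 per length, at 211 and 245 mean FPKM in AKG and Control. Its levels were 410, 468 and 494 CPM in AKG, against 689, 725 and 758 CPM in Control (log2 fold change -0.66, SE 0.0905, adjusted p = 4.6e-05, edgeR). An opposite-strand transcript, Gm45760, covers 9% of its exon bases in GENCODE M21. Got1, the cytosolic form, had 108, 162 and 193 CPM in AKG, against 274, 298 and 328 CPM in Control (-0.96, SE 0.213, adjusted p = 0.0108). AKG 1 stood well below the other AKG libraries of Got1, and without it the log2 fold change was -0.75 (adjusted p = 3.57e-05). With total counts as the scaling it was -0.51 (adjusted p = 0.0998). The FPKM of Got1 over that of Got2 was 0.325, 0.428 and 0.483 in AKG and 0.490, 0.509 and 0.532 in Control, so AKG 3 came close to Control 1.

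Among the carriers and the enzyme that splits citrate, those of citrate export and use rose. Acly, ATP citrate lyase, which makes cytosolic acetyl-CoA for lipid synthesis and protein acetylation, had 71.7, 66.0 and 66.8 CPM in AKG, against 39.3, 43.5 and 45.3 CPM in Control, 1.6-fold higher in AKG (log2 fold change 0.68, SE 0.0798, adjusted p = 1.3e-05, edgeR). Slc25a1, the citrate carrier that supplies it, had 12.5, 13.1 and 9.04 CPM in AKG, against 7.69, 7.33 and 7.80 CPM in Control (0.60, SE 0.156, adjusted p = 0.00578). The AKG libraries lay above Control for both genes, and both calls held with each library left out in turn. The FPKM of Acly over that of Cs was 0.0839, 0.0715 and 0.0651 in AKG and 0.0248, 0.0274 and 0.0268 in Control. Both genes are also abundant in fat cells. Of 9 adipocyte markers, Cfd, Cidec, Retn and Lep had 0 counts in all libraries. The 8 apart from Fabp4 summed to 0.281 to 0.373 CPM in AKG and 0 to 0.248 CPM in Control. Fabp4, which endothelial cells also express, was called lower in AKG (-0.38, adjusted p = 0.0411, edgeR). Its groups overlapped, and under total-count scaling its log2 fold change was 0.06.

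Slc25a12, the aspartate-glutamate carrier of heart and brain in the malate-aspartate shuttle, had 77.7, 86.1 and 93.3 CPM in AKG, against 98.6, 111 and 117 CPM in Control. It fell by 0.35 on the log2 scale (SE 0.088, adjusted p = 0.00494, edgeR), but its log2 fold change was 0.10 under total-count scaling (adjusted p = 0.431) and 0.18 in the authors' deposited table. Slc25a13, the second form of this carrier, had 47.2, 47.8 and 46.1 CPM in AKG, against 47.1, 53.5 and 49.5 CPM in Control, with overlapping groups (-0.09, SE 0.0778, adjusted p = 0.364) and 0.35 with total counts (adjusted p = 0.00586). Of the FPKM of the pair, Slc25a12 held 66.5 ± 2.19% in AKG and 69.2 ± 1.40% in Control (SD, n = 3 each), and the groups overlapped. From counts the shares were 64.5 ± 2.37% and 68.5 ± 1.58%, with no overlap. Slc25a10, the dicarboxylate carrier, had 11.1, 10.7 and 11.1 CPM in AKG, against 11.6, 13 and 13.8 CPM in Control. Its groups did not overlap, but the difference did not pass the threshold (-0.22, SE 0.12, adjusted p = 0.141), and with total counts it was 0.22.

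**Figure D4:**
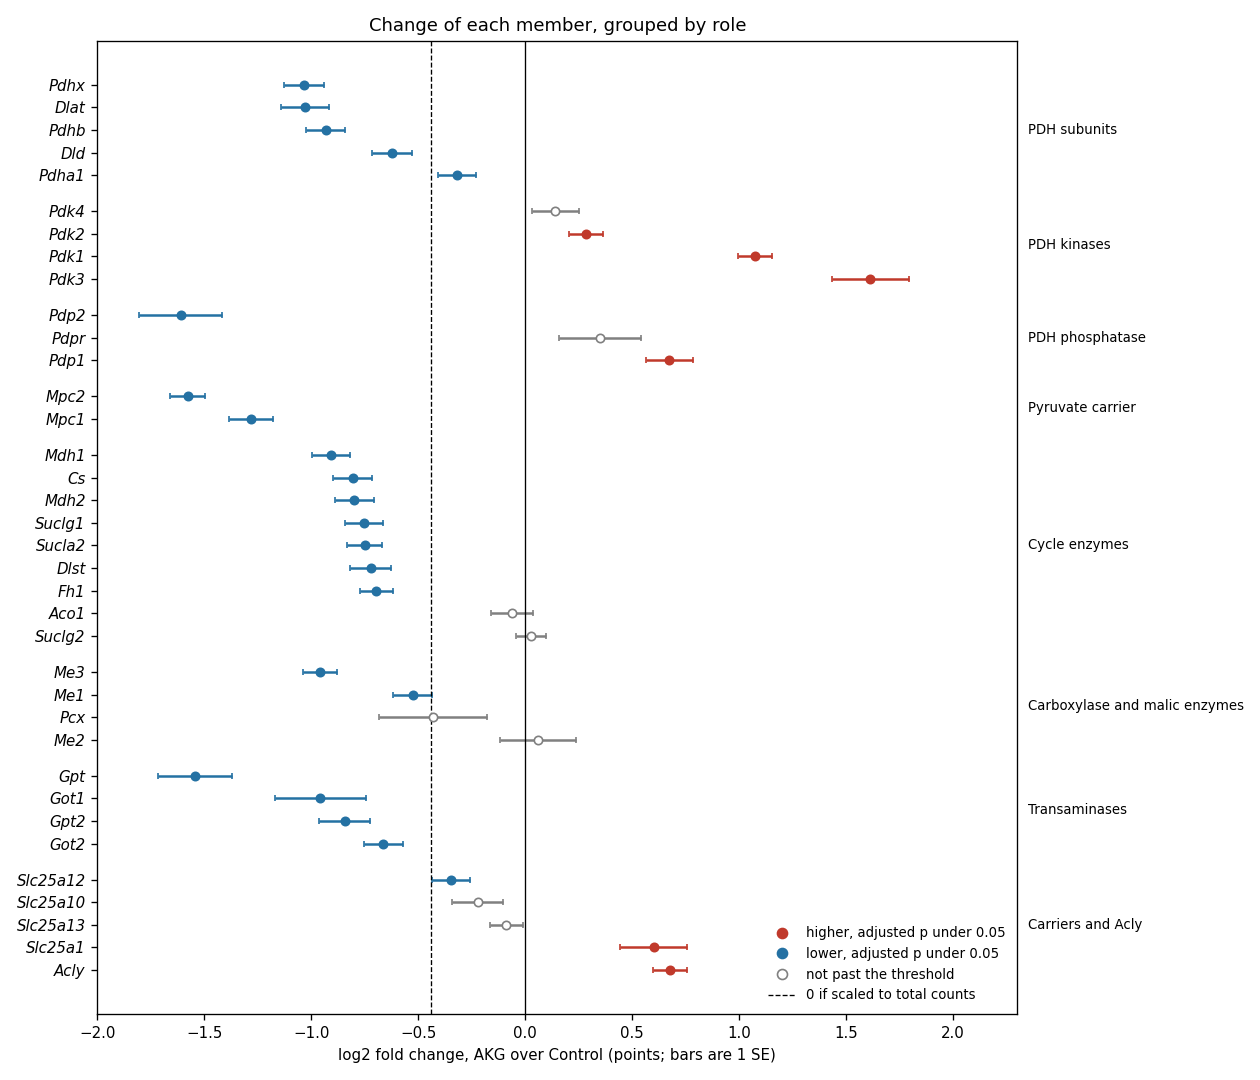
Log2 fold change of each member (AKG over Control, TMM scaling, bars of 1 SE) by role, filled where the adjusted p was under 0.05; the dashed line shows where 0 would lie if libraries were scaled to total counts. The 6 higher members stand right of both lines, and of the 22 lower members only Pdha1 and Slc25a12 lie between the lines.

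Per length, the order of the members was led by the same genes in both groups. In AKG the highest mean FPKM were those of Mdh1 (564), Mdh2 (562), Cs (254) and Pdk4 (236), and in Control those of Mdh2 (727), Mdh1 (704), Cs (325) and Pdhb (291). Mdh1 and Mdh2 changed places, and their ratio did not separate the groups. Pdk4 stood 4th of the 36 in AKG and 11th in Control, Mpc2 15th and 8th, Pdk3 27th and 34th, and Gpt 33rd and 26th. FPKM is scaled to the library total, so only the order within a group is read from it.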

How the data were processed

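RNA sequencing of 3 AKG and 3 Control libraries was used. The authors deposited 1 table with estimated counts, as whole numbers, and FPKM for every gene in each library, and 60 zero counts have a positive FPKM. The authors deposited a log2 fold change, which equals the log2 ratio of mean FPKM. The authors also deposited a p-value with its false discovery rate, without saying which values were tested; for Pdha1 that rate is 0.000976, beside an adjusted p of 0.000845 from DESeq2 on the counts and 0.292 from limma on FPKM. The submitters' processing notes name HISAT2 2.1.0, RSEM 1.2.19 and DESeq2 1.20.0; their roles, the genome build and the annotation are not given in the sources used here, so gene coordinates are not printed except for RefSeq promoter windows.

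Members were matched by symbol. The 30 rows without a symbol (3.95e-05% of counts) were left out. In R 4.3.3, edgeR 4.0.16 (filterByExpr with minimum count 10 and minimum total 15, TMM, robust quasi-likelihood test) was fitted to 13117 genes, with Benjamini-Hochberg adjustment over all of them and a threshold of 0.05. The SE was taken as the absolute log2 fold change over sqrt(F). Levels are CPM on the TMM scale, in which 3 counts correspond to 0.166 to 0.221 CPM. Shares and ratios within a library use the deposited FPKM and carry no test. Every member is named; of the other pathway genes, the text names the 4 with the smallest p in each direction and those that bear on a member. The fit was also run on data simulated with the dispersions and library sizes estimated here, and no result in the text rests on that run.

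Alternatives were other scalings, filters and tools (DESeq2 1.42.0, limma 3.58.1), FPKM with pseudocounts of 1 and 0.1, the replicate number as a block and libraries left out. The members and lists were chosen with earlier results of these data known.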

Additional observations from a re-analysis of the deposited data

How the results depend on the processing

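Of 648 alternative values of the 36 members' log2 fold changes, 590 kept their direction and their side of the threshold, 17 were no longer past it, 16 newly passed it and 25 changed sign. None of the 36 changed with DESeq2 size factors, another filter, no robust estimates, DESeq2, limma-voom or the replicate block. The replicate numbers are not known to pair libraries (correlations of deviations between same-numbered libraries 0.161, -0.0342 and 0.0489), and with the block 6 members were higher and 22 lower, 2 and 23 other pathway genes, and 3257 and 3314 of all genes.

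Scaling to total counts gave 12 higher members, 7 higher and 12 lower pathway genes, and 7430 higher and 1197 lower genes overall. Without mitochondrially encoded genes in the total, 9 members were higher and 20 lower. With that total 4 pathway genes were higher and 19 lower, and 4934 of all genes were higher and 2218 lower. Pdha1 (-0.14) and Slc25a12 kept their sign but lost their call there. Pdk4 (0.32), Pdpr (0.53) and Suclg2 (0.21) were newly called higher there. On log2(FPKM + 1) and log2(FPKM + 0.1), 12 members and 7 pathway genes were higher and 12 pathway genes lower, with 6732 and 6725 genes higher and 1068 and 1067 lower. On log2(FPKM + 1) Dld, Pdhx, Sucla2, Me1 and Got2 kept their sign but lost their call, at -0.19, -0.28, -0.22, -0.09 and -0.22. Pdk4, Pdpr, Suclg2 and Me2 were newly called higher, at 0.57, 0.53, 0.43 and 0.38. The sign changes under these scalings follow in the order total counts, FPKM + 1, FPKM + 0.1: Pdha1 0.13, 0.12 and 0.12; Aco1 0.38, 0.34 and 0.37; Pcx 0.0119, 0.0101 and 0.0222; Slc25a10 0.22, 0.19 and 0.22; Slc25a12 0.10, 0.17 and 0.18; Slc25a13 0.35, 0.33 and 0.35. With the total without mitochondrially encoded genes, Aco1 was 0.12 and Slc25a13 0.0926.

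With libraries left out, sign changes arose only in members not past the threshold: Pdk4 -0.00427 without AKG 3 (range to 0.23), Aco1 0.0114 without AKG 1 (range from -0.16), and Me2 -0.0150 without AKG 1, -0.11 without Control 3 and -0.0208 with AKG 2 alone (range to 0.17); the cause was not tested. Over the 6 fits that leave out 1 library, 5 to 7 members were higher and 22 lower, and 2750 to 3296 genes were higher and 2846 to 3243 lower.

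Members had 55 counts or more in each library, and the part of depth in their errors was not tested. The SE was 0.253 for Pcx and 0.213 for Got1, whose lowest counts were 55 and 1924.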
